A study of Mus musculus with 4 samples.

Results

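The insulin-like growth factor (IGF) receptors and binding proteins examined here were 9 genes, namely Igf1, Igf1r, Igf2r, Igfbp2, Igfbp3, Igfbp4, Igfbp5, Igfbp6 and Igfbp7, chosen by symbol from the 24421 genes in the expression matrices. RNA-seq of epididymal fat, which lies along the epididymis and is a visceral depot, gave their transcript levels in male wild-type C57BL/6J mice. Weight-cycled (WC1) and control (Ctrl) mice both spent 14 weeks in all on high-fat diet (HFD) and had reached an age of 24 weeks. In WC1 the HFD was split into a period of 8 weeks and a period of 6 weeks, with 2 weeks of standard diet (SD) between them, and feeding started at an age of 8 weeks. Ctrl mice had a single unbroken HFD period, which started at an age of 10 weeks. There were 2 libraries per group, here called Ctrl 1, Ctrl 2, WC1 1 and WC1 2. The sources used here do not say whether each library came from 1 mouse, so the p-values measure the spread between these libraries, which may be technical in part.

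IGF-1 is a peptide hormone that acts through the IGF-1 receptor, a tyrosine kinase related to the insulin receptor. Much of the circulating IGF-1 comes from the liver, but adipose tissue also makes it locally, in stromal cells, macrophages and adipocytes. Secreted IGF-binding proteins (IGFBPs) hold IGFs in the extracellular space, prolong their life and limit or deliver them to receptors, and proteases release the ligand again. The IGF-2 receptor does not signal in the way that a tyrosine kinase does. It takes IGF-2 into the cell for degradation and also carries enzymes tagged with mannose 6-phosphate to lysosomes.

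Expression is given as CPM, the reads of a gene scaled to the authors' adjusted library size, for comparisons of 1 gene between libraries, and as TPM, reads corrected for transcript length, for comparisons of level between genes. The libraries held between 61465029 and 90965297 reads. The tissue label was checked against marker genes: 10 of 10 adipocyte markers were tested, with a summed level of 10375 and 11692 CPM in Ctrl and 18655 and 23908 CPM in WC1, while the epididymis markers Crisp1 and Lcn5 were listed at 0 in each library and Adam7 reached 3.02 CPM in WC1 1. Macrophage markers stood lower in WC1 and endothelial markers stood higher, and those values are given beside the genes that moved with them. In bulk tissue, fewer cells of a type and less RNA per cell cannot be told apart.

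Transcripts of a pair of binding proteins, Igfbp3 and Igfbp5, were more abundant in weight-cycled than in control mice, and those of the ligand Igf1 were less abundant. Igfbp3 was 2.70-fold and Igfbp5 2.33-fold as abundant in WC1 as in Ctrl, whereas Igf1 stood at 0.699 times its control level. All 9 genes passed the filter on low values. In limma over 14106 genes, 2 of the 9 were called higher and 1 was called lower in WC1 (adjusted p under 0.05), where 10.2% of all genes tested were called higher and 7.71% lower (17.9% in either direction). The TPM matrix called 1949 genes higher and 552 lower, and plain CPM called 1707 and 833, compared to 1443 and 1088 here, and both called 2 of the 9 genes higher and 0 lower. Calls over all genes rested on both Ctrl libraries, since only 2 genes were called higher and 4 lower without Ctrl 1, and 6 and 6 without Ctrl 2. Groups did not overlap in 6 of the 9 genes, 2 with WC1 above Ctrl and 4 with WC1 below, a share close to the 69.3% of all genes tested (32.7% above and 36.6% below). In TPM the split was 4 above and 2 below, where 48.6% of all genes tested lay above and 21.6% below, since Igf1r and Igfbp7 separated upward there and Igf2r and Igfbp6 overlapped. The median log2 fold change over the 9 genes was -0.19, compared to -0.02 over all genes tested.

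**Figure D1:**
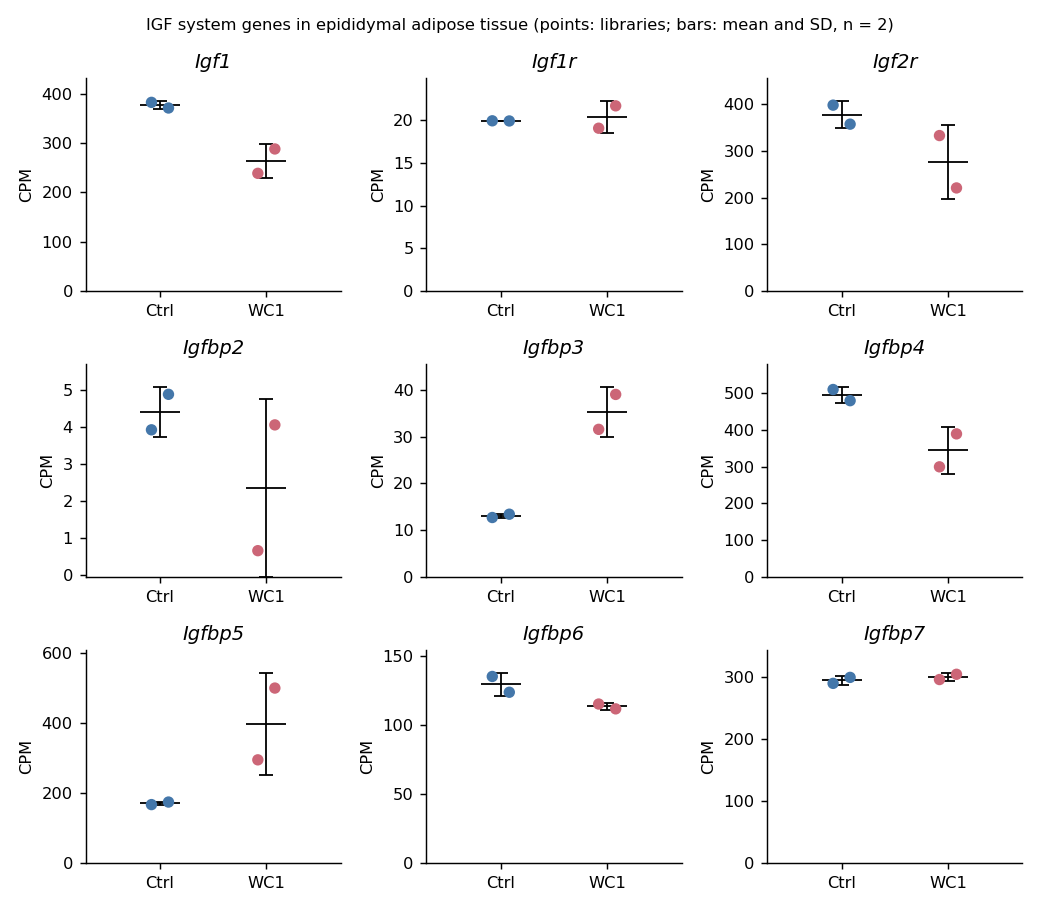
CPM of the 9 genes in each library, with a linear axis for each gene; points are libraries (blue Ctrl, red WC1) and black bars give the mean and SD of 2 libraries. Igfbp3 and Igfbp5 lie higher in both WC1 libraries and Igf1 and Igfbp4 lie lower, while Igfbp7 overlaps between groups and the WC1 libraries of Igfbp2 stand far apart at 0.656 and 4.07 CPM.

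IGFBP-3 is the main carrier of IGFs in serum, where it forms a stable complex with the ligand and the acid-labile subunit (ALS). Igfbp3 was at 12.7 CPM in Ctrl 1, 13.4 in Ctrl 2, 31.6 in WC1 1 and 39.0 in WC1 2. Both WC1 libraries lay above both Ctrl libraries, by a gap wider than the distance between the libraries of either group. Igfbp3 rose from 13.1 ± 0.50 to 35.3 ± 5.3 CPM (SD, n = 2 each), and its log2 fold change was 1.36 ± 0.12 (SE) with a limma adjusted p of 0.012. This call was kept in 12 of 14 alternative analyses and was lost only without Ctrl 1 (limma adjusted p = 0.12) and without Ctrl 2 (0.095), at fold changes of 1.32 and 1.40.

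IGFBP-5 binds to extracellular matrix and, like IGFBP-3, can join ALS in a complex with the ligand. Igfbp5 was at 167 CPM in Ctrl 1, 174 in Ctrl 2, 295 in WC1 1 and 501 in WC1 2. The Ctrl libraries lay close together, and WC1 2 stood well above WC1 1. Igfbp5 rose from 171 ± 5.2 to 398 ± 145 CPM (SD, n = 2 each), and its log2 fold change was 1.17 ± 0.25 (SE) with a limma adjusted p of 0.040. Without WC1 2 the fold change was 0.79, still called, and without WC1 1 it was 1.55. The call was lost without a filter on low values (limma adjusted p = 0.071), without Ctrl 1 and without Ctrl 2. The fold changes there were 1.17, 1.14 and 1.20.

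Both genes lie beside another IGFBP gene in mm10, the build named in the submitters' processing notes. Igfbp3 occupies chr11:7206086-7213923 on the minus strand, with 3539 bases between it and Igfbp1. Igfbp5 occupies chr1:72857932-72874884 on the minus strand, with 5457 bases between it and Igfbp2. Of the neighbours, Igfbp1 was listed at 0 in 3 libraries and at 0.0575 CPM in Ctrl 2, too low to be tested. Igfbp2 was not called, and its WC1 libraries stood far apart at 0.656 and 4.07 CPM. The 250 bases before the RefSeq start of each gene (GRCm38.p6, minus strand) are shown because these were the 2 genes of the family called higher. The RefSeq start of Igfbp5 lies inside the span given above, so its window overlaps the end of that span. Capitals mark matches, on either strand, to a letter pattern like the TATA box (TATANA), to the GC box pattern (GGGCGG), to the inverted or forward box known as CCAAT, or to a spaced pattern like the STAT site (TTCNNNGAA), and overlapping matches were counted separately.
Igfbp3 promoter, chr11:7213924-7214173: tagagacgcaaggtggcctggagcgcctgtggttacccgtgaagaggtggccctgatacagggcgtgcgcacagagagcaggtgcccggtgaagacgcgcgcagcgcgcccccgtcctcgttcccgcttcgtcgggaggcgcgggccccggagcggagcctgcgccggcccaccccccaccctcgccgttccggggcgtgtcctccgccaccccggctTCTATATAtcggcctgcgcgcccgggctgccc
Igfbp5 promoter, chr1:72874866-72875115: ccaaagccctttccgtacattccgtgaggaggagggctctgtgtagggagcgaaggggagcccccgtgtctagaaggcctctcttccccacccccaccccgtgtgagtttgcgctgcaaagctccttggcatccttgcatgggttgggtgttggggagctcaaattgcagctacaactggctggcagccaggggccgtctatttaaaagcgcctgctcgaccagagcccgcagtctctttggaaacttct
The Igfbp3 window held 2 overlapping matches to TATANA, which began 32 and 30 bases before the start, and 22.6% of 32851 promoter windows of the same length held at least 1. No match to the other patterns was present in either window, where 32.7% of all windows held the GC box pattern, 33.8% the CCAAT box and 7.02% the STAT-like pattern. The Igfbp5 window held no match to TATANA, but it did hold the AT-rich letters tatttaaa, which that strict pattern does not cover. The GC content was 73.2% for Igfbp3 and 58.8% for Igfbp5. A match is a description of the letters only.

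**Figure D2:**
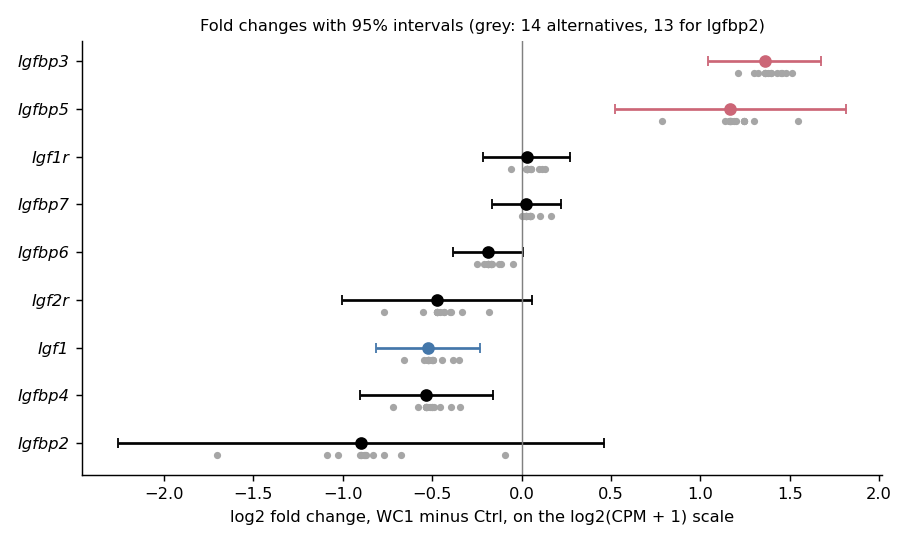
Log2 fold changes of WC1 minus Ctrl on the log2(CPM + 1) scale with 95% intervals from limma; red marks genes called higher, blue the gene called lower and black those not called, and grey points give the alternative analyses. The intervals of Igfbp3 (1.04 to 1.68) and Igfbp5 (0.52 to 1.81) lie above 0 and that of Igf1 (-0.81 to -0.23) below it, while those of Igf1r and Igfbp7 are narrow and span 0.

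Igf1, at chr10:87858265-87937042 on the plus strand of mm10, encodes the ligand and overlaps the annotated antisense gene Igf1os, which has no row in the matrices. The labels and methods read here do not state whether reads were counted by strand. Igf1 was at 383 CPM in Ctrl 1, 371 in Ctrl 2, 239 in WC1 1 and 288 in WC1 2, so that both WC1 libraries lay below both Ctrl libraries. Igf1 fell from 377 ± 8.1 to 263 ± 35 CPM (SD, n = 2 each), and its log2 fold change was -0.52 ± 0.11 (SE) with a limma adjusted p of 0.041. The direction was the same in each of the 14 alternatives, with fold changes between -0.66 and -0.35, but the call was kept in only 8. It was lost in edgeR on whole reads (adjusted p = 0.052), in the TPM matrix (limma adjusted p = 0.088), in plain CPM (0.067), without a filter (0.067), without Ctrl 1 (0.27) and without Ctrl 2 (0.20). The TPM matrix moved the median of all genes up by 0.12 on the log2 scale. Relative to the all-gene median, the difference in Igf1 was -0.50 in CPM and -0.45 in TPM.

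Macrophages are a known source of Igf1 in adipose tissue, and their markers also stood lower in WC1. The 12 macrophage markers summed to 13453 and 12404 CPM in Ctrl and to 8093 and 5782 CPM in WC1. Of these, 7 of 12 were called lower, where 7.71% of all genes tested were called lower. The defining markers Adgre1, Cd68 and Csf1r were far above 0 in each library and lower in both WC1 libraries, but were not called (limma adjusted p = 0.10, 0.10 and 0.14). Of the WC1 libraries, WC1 2 had the higher level of Igf1 and the lower macrophage sum. The 12 fibroblast markers summed to 15666 and 15597 CPM in Ctrl and to 15365 and 12884 CPM in WC1, with 3 of 12 called lower, none called higher and a median log2 fold change of -0.14. Those called were Pdgfra, Dcn and Lum (-0.59, -0.60 and -0.71), while the other defining markers Col1a1 and Dpt had fold changes of 0.09 and -0.16. Over the whole list the fold changes ran from -0.71 to 0.27. The part of these cells in the lower level of Igf1 was not tested.

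The genes whose pattern over the 4 libraries was closest to that of Igf1 were Cst6, Slc16a9 and Hif3a, by the Euclidean distance between log2(CPM + 1) values centred on their means among 13343 genes. The distances were 0.051, 0.062 and 0.069. The added 1 shrinks changes of low genes on this scale, which brings them closer to Igf1. In mean CPM, WC1 stood at 0.414 times Ctrl for Cst6, 0.683 for Slc16a9 and 0.509 for Hif3a, compared to 0.699 for Igf1. Cst6 was at 1.29 and 1.20 CPM in Ctrl and 0.377 and 0.651 CPM in WC1. Slc16a9, a solute carrier gene, was at 8.70 and 8.80 CPM in Ctrl and 5.21 and 6.75 CPM in WC1. Hif3a, a hypoxia-inducible factor gene, was at 2.06 and 2.01 CPM in Ctrl and 0.819 and 1.25 CPM in WC1. None of the 3 was called.

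The receptors did not show a called difference. Igf1r (chr7:67952827-68233668, plus strand), which transmits the IGF signal, was at 19.9 CPM in Ctrl 1, 19.9 in Ctrl 2, 19.1 in WC1 1 and 21.7 in WC1 2, and the Ctrl values lay between those of WC1. Its log2 fold change was 0.03 ± 0.10 (SE, limma adjusted p = 0.85) with a 95% interval of -0.22 to 0.27. Igf2r was at 398 CPM in Ctrl 1, 357 in Ctrl 2, 333 in WC1 1 and 220 in WC1 2. The WC1 libraries were lower than both Ctrl libraries, with WC1 2 far below WC1 1. The log2 fold change of Igf2r was -0.48 ± 0.21 (SE, limma adjusted p = 0.16), with an interval of -1.01 to 0.06. It was -0.18 without WC1 2 and -0.77 without WC1 1, and was called in the latter fit, which rests on a single WC1 library. Igf2r (chr17:12682406-12769664, minus strand) overlaps the antisense RNA Airn in the annotation, and whether reads were counted by strand is not stated in the labels or methods read here. Airn itself was at 5.98 and 6.60 CPM in the Ctrl libraries and 6.26 and 5.86 CPM in the WC1 libraries. The macrophage marker sum had the same order over the 4 libraries as Igf2r, and its part in the Igf2r values was not tested.

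Igfbp4 (chr11:99041244-99054392, plus strand), which encodes an abundant adipose binding protein that holds IGFs back from the receptor, was at 510 CPM in Ctrl 1, 480 in Ctrl 2, 300 in WC1 1 and 389 in WC1 2. Both WC1 values were below both Ctrl values. The log2 fold change of Igfbp4 was -0.53 ± 0.15 (SE), beside -0.52 for Igf1, with a limma adjusted p of 0.064. It was called in 3 of 14 alternatives, namely DESeq2 (adjusted p = 0.011) and limma without WC1 1 or without WC1 2. Each of those limma fits rests on a single WC1 library, with log2 fold changes of -0.34 and -0.72. As for Igf1, WC1 1 was lower than WC1 2.

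The remaining binding proteins were not called. Igfbp6 (chr15:102144362-102149511, plus strand), whose product prefers IGF-2 to IGF-1, was at 135 and 124 CPM in the Ctrl libraries and 115 and 112 CPM in the WC1 libraries. Its groups did not overlap in CPM, and the log2 fold change was -0.19 ± 0.08 (SE, limma adjusted p = 0.14). In TPM its groups overlapped, at 200.8 and 185.6 in Ctrl and 186.6 and 186.8 in WC1, and the fold change of Igfbp6 was -0.05. Igfbp7 (chr5:77349240-77408041, minus strand), whose product binds IGFs weakly and is made in abundance by vessels, was at 290 and 299 CPM in the Ctrl libraries and 296 and 304 CPM in the WC1 libraries. These CPM values interleave, and the log2 fold change was 0.03 ± 0.07 (SE, limma adjusted p = 0.81) with an interval of -0.16 to 0.22. In TPM both WC1 libraries of Igfbp7 (549 and 584) lay above both Ctrl libraries (493 and 515), with a fold change of 0.17 that was not called, or 0.06 relative to the all-gene median. Igfbp7 overlaps Polr2b on the opposite strand, so the limit on strand given for Igf2r holds for it too. Igfbp2 (chr1:72824503-72852474, plus strand), a major circulating binding protein, was at 3.93 CPM in Ctrl 1, 4.90 in Ctrl 2, 0.656 in WC1 1 and 4.07 in WC1 2. The value in WC1 1 rests on 40 reads, with an exact Poisson interval of 0.468 to 0.893 CPM that covers counting error only, so WC1 1 stood apart beyond counting error. For Igfbp2 the log2 fold change was -0.90 ± 0.53 (SE, limma adjusted p = 0.28), and it was -0.09 without WC1 1. Without WC1 2 it was -1.70 and was called, a fit in which WC1 rests on the 40 reads of WC1 1. The 8 mesothelial markers, which include Msln, Upk3b and Wt1, summed to 128 and 95.8 CPM in Ctrl and to 65.6 CPM in WC1 1 and 175 CPM in WC1 2, the same order within WC1 as Igfbp2 and the opposite order within Ctrl. Their part in the Igfbp2 values was not tested.

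Per transcript length, Igfbp7 and Igfbp4 were the most abundant members in both groups. In Ctrl the order of mean TPM was Igfbp7 (504 ± 15.5), Igfbp4 (460 ± 16.7), Igfbp6 (193 ± 10.7), Igf1 (106 ± 0.47), Igf2r (81.2 ± 5.6), Igfbp5 (56.0 ± 2.1), Igfbp3 (10.3 ± 0.46), Igfbp2 (6.38 ± 1.03) and Igf1r (3.20 ± 0.020) (SD, n = 2), and no neighbours overlapped. In WC1, Igfbp5 stood 4th at 145 ± 56 TPM, above Igf1 at 83.3 ± 11.2 and Igf2r at 65.4 ± 17.3 TPM, and its libraries did not overlap those of Igf1. Igf1 and Igf2r overlapped in WC1, as did Igfbp2 and Igf1r.

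The summed TPM of the 6 binding protein genes was 1236 and 1224 in Ctrl and 1171 and 1401 in WC1, so the total overlapped between groups while its makeup differed. Igfbp5 and Igfbp3 together made up 5.22% and 5.56% of the total in Ctrl and 11.3% and 15.6% in WC1. Igfbp4 made up 38.2% and 36.6% in Ctrl and 25.8% and 28.9% in WC1. Set against the ligand, there were 11.6 and 11.6 TPM of binding protein transcripts per TPM of Igf1 in Ctrl and 15.5 and 15.3 in WC1. The ratio of Igfbp4 to Igfbp5 was 8.65 and 7.80 in Ctrl and 2.88 and 2.20 in WC1. These sums and ratios are transcript levels without a test, since the members were chosen with results known. The smallest exact two-sided p for 2 against 2 libraries is 0.333.

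**Figure D3:**
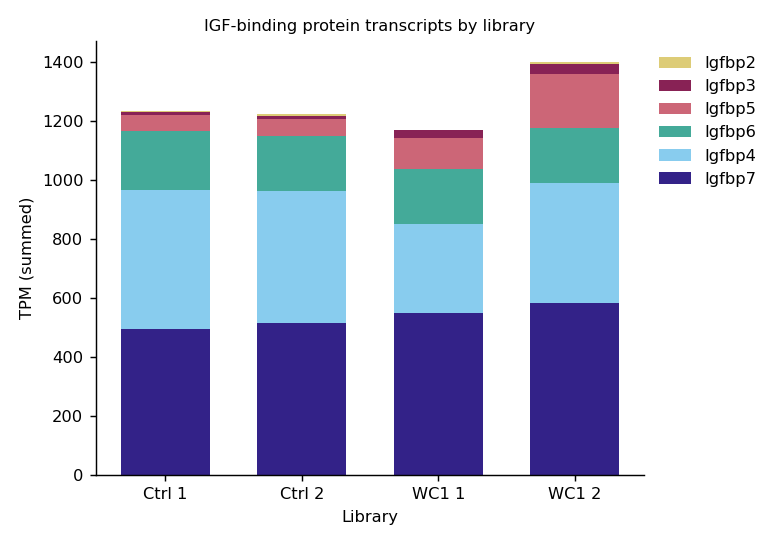
Stacked TPM of the 6 binding protein genes in each library, with a linear axis from 0. The bars reach between 1171 and 1401 TPM, and the segments of Igfbp5 and Igfbp3 are larger in both WC1 libraries while that of Igfbp4 is smaller.

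The other genes of the pathway were read from lists of 70 genes grouped by role, of which 63 were tested. In all, 16 were called higher and 3 lower in WC1, or 30.2% of those tested, compared to 17.9% of all genes tested. The lists were chosen with earlier results of these data known, so both shares are given without a test. The TPM matrix gave 20 higher and 1 lower of 61 tested. No call was left in limma without Ctrl 1 or without Ctrl 2, with 15 and 18 genes higher and 4 and 3 lower at an unadjusted p under 0.05, and without WC1 1 there were 21 higher and 15 lower, where 17.2% of all genes tested were called higher and 19.5% lower. The median log2 fold change over the 63 genes was 0.02, against -0.02 over all genes.

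Partners of the ligand came first. Igfals encodes ALS, which joins the complex formed by IGFs with IGFBP-3 or IGFBP-5. Igfals was at 16.6 CPM in Ctrl 1, 20.2 in Ctrl 2, 50.7 in WC1 1 and 93.6 in WC1 2. It rose by 1.86 ± 0.30 on the log2 scale (SE, limma adjusted p = 0.024), with WC1 2 well above WC1 1. The transcripts of Igfbp3, Igfbp5 and Igfals were thus each called higher. Igf2, the other ligand, rose from 3.0 and 2.86 CPM to 5.16 and 6.05 CPM, for a log2 fold change of 0.75 ± 0.12 (SE) and a limma adjusted p of 0.025. Igf2 was scarce in both groups, and Igf1 exceeded it 69.0-fold and 77.3-fold in TPM in Ctrl and 27.3-fold and 26.9-fold in WC1. Insr, the insulin receptor gene, was at 59.3 and 60.2 CPM in Ctrl and 68.9 and 76.0 CPM in WC1. It was not called in limma (adjusted p = 0.070) but was called in DESeq2 (adjusted p = 0.046). Limma without WC1 1, a fit on a single WC1 library, also called it. Per length, Insr exceeded Igf1r 3.81-fold and 3.87-fold in Ctrl and 4.62-fold and 4.49-fold in WC1. Insulin genes Ins1 and Ins2 and the binding protein homologue Igfbpl1 were listed at 0 in each library.

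Among genes that release IGFs from binding proteins or block that release, 4 of 7 were called higher and none lower. The shares over all genes tested were 10.2% higher and 7.71% lower. Stanniocalcins inhibit PAPP-A and PAPP-A2, which are proteases that cleave IGFBPs. Stc1 rose from 2.02 and 1.60 CPM to 4.59 and 6.37 CPM, for a log2 fold change of 1.20 ± 0.18 (SE) and a limma adjusted p of 0.022. Stc2 rose from 3.32 and 3.59 CPM to 5.87 and 8.28 CPM, by 0.84 ± 0.17 (SE, limma adjusted p = 0.037). The protease gene Pappa was near the limit of the filter, at 0.278 and 0.437 CPM in Ctrl and 1.56 and 0.667 CPM in WC1, with means 3.11-fold apart. It was not called in limma (adjusted p = 0.13) or edgeR (0.090), but was called in DESeq2 (0.038). Limma without WC1 2, a fit on a single WC1 library, also called it. Htra1, a secreted serine protease with an IGFBP-like domain, rose from 110 and 129 CPM to 175 and 230 CPM (log2 fold change 0.75, limma adjusted p = 0.039). Adamts1, which encodes a secreted metalloprotease of the ADAMTS family, rose by 0.36 in log2 units (limma adjusted p = 0.033).

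None of the 6 genes of the growth hormone axis, which drives Igf1 transcription, was called in limma on CPM, and 2 had an unadjusted p under 0.05, namely Stat5a and Socs2. In the TPM matrix limma called 2 of the 6 higher, Ghr (log2 fold change 1.07, adjusted p = 0.044) and Stat5a (0.40, adjusted p = 0.041). In edgeR the number called was also 0, and DESeq2 called Stat5a, which encodes a transcription factor of this axis. Without WC1 1, which leaves a single WC1 library, limma called Stat5a and Cish higher and Socs2 lower. In plain CPM limma called Stat5a (adjusted p = 0.048). Ghr, the growth hormone receptor gene, was at 372 CPM in Ctrl 1, 179 in Ctrl 2, 330 in WC1 1 and 450 in WC1 2, with the Ctrl libraries far apart (log2 fold change 0.57, limma adjusted p = 0.31). Socs2, a growth hormone target, was at 13.3 and 15.1 CPM in Ctrl and 11.5 and 10.3 CPM in WC1, lower in both WC1 libraries like Igf1 but not called (limma adjusted p = 0.089).

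Downstream of the receptors, 6 of 30 tested signalling genes were called higher and 2 lower. Over all genes tested, 10.2% were called higher and 7.71% lower. The insulin receptor substrates, which dock to both IGF-1 and insulin receptors, were all called higher except Irs4, which was near 0. Irs1 rose from 15.1 and 15.0 CPM to 26.9 and 29.0 CPM, for a log2 fold change of 0.85 ± 0.08 (SE) and a limma adjusted p of 0.013. Irs2 rose by 0.68 ± 0.10 (SE, limma adjusted p = 0.020) and Irs3, a rodent substrate of fat cells, by 1.07 ± 0.16 (SE, limma adjusted p = 0.022). The kinase gene Akt2 rose by 0.42 whereas its homologue Akt1 fell by 0.40 in log2 units (limma adjusted p = 0.038 and 0.037). In the TPM matrix the fold change of Akt1 was -0.26 and was not called (limma adjusted p = 0.065). Mtor and Rps6kb1, which encode growth-control kinases, rose by 0.48 and 0.28 (limma adjusted p = 0.021 and 0.046), and Rps6kb1 was not called without WC1 2 (0.061). Ptpn1, which encodes a phosphatase that switches off insulin receptor signalling, fell from 195 and 195 CPM to 122 and 104 CPM, for a log2 fold change of -0.78 ± 0.10 (SE) and a limma adjusted p of 0.017.

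Of 8 tested genes for other secreted or membrane proteins with an IGFBP-like domain, 4 were called higher and none lower. Of all genes tested, 10.2% were called higher and 7.71% lower. Nov (Ccn3) rose from 4.91 and 5.50 CPM to 13.8 and 12.0 CPM, for a log2 fold change of 1.16 ± 0.12 (SE) and a limma adjusted p of 0.014. Crim1 rose by 0.62, Cyr61 (Ccn1) by 0.50 and Wisp2 (Ccn5) by 0.38 in log2 units (limma adjusted p = 0.029, 0.031 and 0.038). No gene was called among the 5 cell surface partners of IGFBPs in limma, with 2 at an unadjusted p under 0.05 (Itgav and Tmem219), nor was any called in edgeR or DESeq2. In 4 of the 5 both WC1 libraries lay below both Ctrl libraries, as in 36.6% of all genes tested. Without WC1 1, where 19.5% of all genes tested were called lower, limma called 3 of the 5 lower, namely Lrp1 (adjusted p = 0.011), Itga5 (0.0052) and Itgav (0.0052), and Itgav was also called with the replicate block (0.047). In the mannose 6-phosphate pathway, in which Igf2r is a receptor, 1 of 4 genes was called. This was Nagpa, which encodes the enzyme that uncovers the tag, and it fell from 58.2 and 58.2 CPM to 25.9 and 37.8 CPM (log2 fold change -0.87, limma adjusted p = 0.037). Nagpa was not called in the TPM matrix (limma adjusted p = 0.067) or in plain CPM (0.052). M6pr, the other receptor for the tag, was at 330 and 313 CPM in Ctrl and 286 and 255 CPM in WC1 (limma adjusted p = 0.12). It was called lower without WC1 1, a fit on a single WC1 library.

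**Figure D4:**
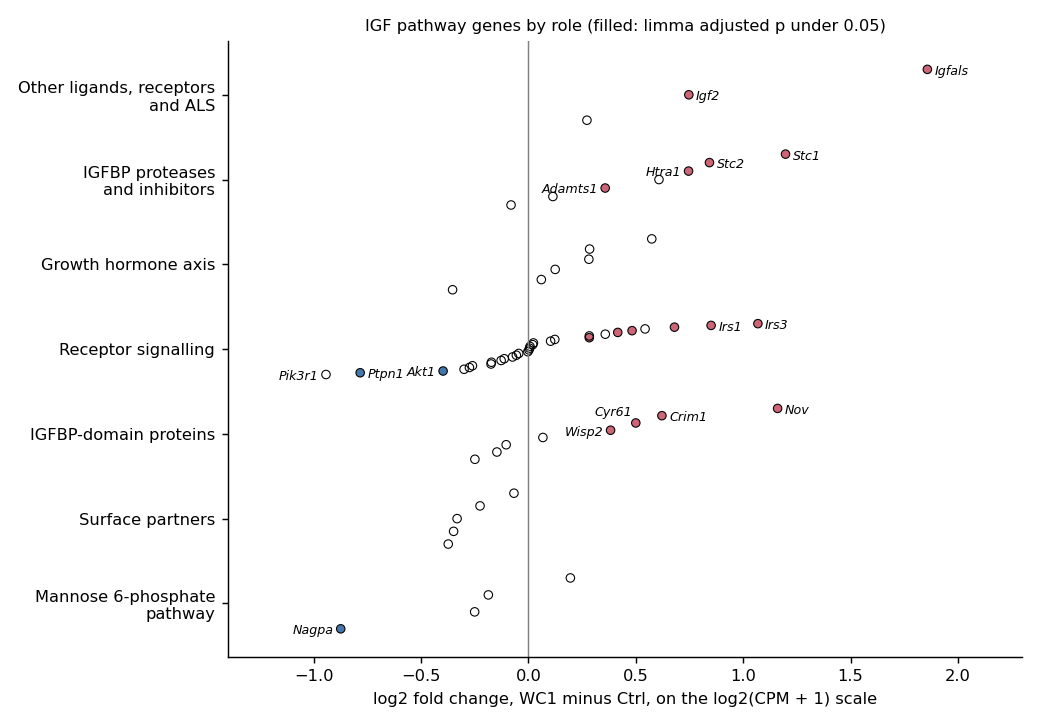
Log2 fold changes of WC1 minus Ctrl for the 63 tested pathway genes, grouped by role; each circle is a gene, red filled when called higher, blue filled when called lower and open when not called. Igfals lies farthest to the right at 1.86, filled circles to the right are in 4 of the 7 groups, and the growth hormone axis and surface partners hold open circles only.

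Vessel and adipocyte markers moved with the binding proteins that rose. The 10 endothelial markers, defined by Pecam1, Cdh5 and Tie1, summed to 525 and 583 CPM in Ctrl and to 1002 and 1300 CPM in WC1. They had a median log2 fold change of 1.04, and 7 of 10 were called higher, where 10.2% of all genes tested were called higher. The 7 smooth muscle markers, led by Myh11, Acta2 and Cnn1, summed to 247 and 260 CPM in Ctrl and to 433 and 501 CPM in WC1, with 4 of 7 called higher. Of the 10 adipocyte markers, 8 were called higher, among them the defining markers Adipoq, Plin1 and Lep (log2 fold changes 1.23, 1.03 and 1.34), with a median log2 fold change of 0.99. None of the defining markers of these lists was at 0 in any library, though Cnn1 was near the limit of the filter, between 1.23 and 1.67 CPM, and did not follow the other smooth muscle markers. The part of vessels, smooth muscle or adipocytes in the levels of Igfbp3, Igfbp5 and Igfals was not tested.

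**Figure D5:**
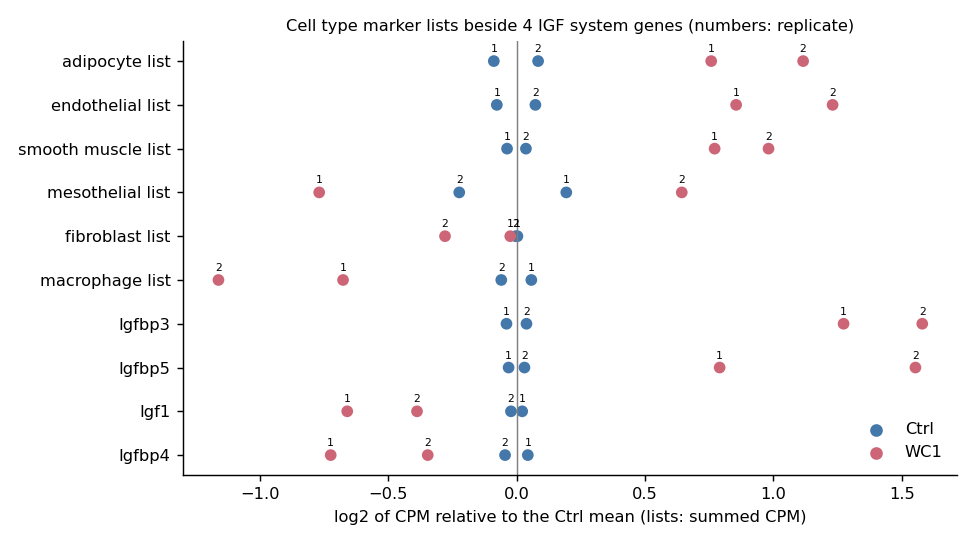
Log2 level of each library relative to the Ctrl mean for the summed CPM of 6 marker lists and for Igfbp3, Igfbp5, Igf1 and Igfbp4; blue points are Ctrl, red points WC1, and the small numbers give the replicate. Adipocyte, endothelial and smooth muscle lists lie to the right in both WC1 libraries with Igfbp3 and Igfbp5, and the macrophage list lies to the left with Igf1 and Igfbp4, with WC1 2 the lower library for the list and WC1 1 for both genes.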

How the data were processed

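RNA-seq of epididymal adipose tissue was analysed in 2 Ctrl and 2 WC1 libraries, grouped by the labels. Per the labels, the authors used fastp, HISAT2 and StringTie with mm10. The labels and methods read here name no versions, annotation or strand setting. The authors deposited 2 matrices. The first is headed CPM and was treated as a signal, because its values were whole reads scaled by a library size that the authors had adjusted, and 100% of values came back as whole reads within 0.01 read. The second holds TPM as deposited. All columns matched a sample by name. Depth was 61465029 to 90965297 reads, and 3 reads corresponded to 0.0345 to 0.0492 CPM. Intervals from reads cover counting error only.

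Genes reaching 0.5 CPM in 2 or more of the 4 libraries (14106 of 24421) were tested on log2(CPM + 1) with limma 3.58.1 in R 4.3.3, with a trend and Benjamini-Hochberg adjustment over all tested genes, two-sided, at a threshold of 0.05. Fold changes are on that scale, which understates the change of low genes. The scripts were tested on simulated data. Alternatives were pseudocounts of 0.5 and 2, no filter, a mean of at least 5 CPM, median-of-ratios scaling, the TPM matrix, edgeR 4.0.16 (quasi-likelihood) and DESeq2 1.42.0 on the recovered reads, leaving out each library, the replicate number as a block, and plain CPM, which was added after seeing the data. The members and gene lists were chosen with earlier results of these data known. Named were all members, each called pathway gene and a fixed set of pathway genes, the first 3 markers of each cell type list (1 list is not reported here), and the 3 genes closest to Igf1, skipping predicted genes, Rik symbols and pseudogenes. Other genes (Airn, Igf1os, Polr2b, Stat5a, Irs4, Ins1, Ins2, Igfbpl1, Itgav, Tmem219, Lrp1, Itga5, Cish, Dcn, Lum and Pik3r1) were named after their values were seen. Genes of the Ccn family were matched through RefSeq synonyms to the older symbols in the matrices. Coordinates come from the mm10 annotation in the reference used here, and promoter sequences from RefSeq (GRCm38.p6).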

Additional observations from a re-analysis of the deposited data

How the results depend on the processing

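Of 125 alternative values of the fold changes of the 9 IGF genes, 108 kept their direction and their side of the threshold, 11 lost a call, 5 gained one and 1 reversed, which was Igf1r without WC1 2 (range -0.061 to 0.12 when 1 library was left out). The count of IGF genes called higher was 2, or 1 without a filter, and 0 to 2 when 1 library was left out. The count called lower was 1, and it was 0 without a filter, in TPM, in edgeR and in plain CPM (3, 1, 2 and 2 at an unadjusted p under 0.05), 2 in DESeq2, and 0 to 3 when 1 library was left out. Of pathway genes, 16 were called higher, 8 without a filter and 0 to 21 when 1 library was left out. Of pathway genes called lower there were 3, with 1 without a filter, 1 in TPM, 5 in DESeq2 and 0 to 15 when 1 library was left out. Where a group was left with 1 library, that library was assumed to vary like the other group. The labels do not say that replicate numbers pair the libraries, and the differences between replicates correlated at 0.19 across 14106 genes. With the replicate number as a block, 2 IGF genes were called higher and 1 lower, and 17 and 4 pathway genes. Depth left a wide counting interval for Igfbp2 in WC1 1 (0.468 to 0.893 CPM), which did not reach the other libraries, and Igfbp2 was not tested under the filter of a mean of 5 CPM.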

Other observations

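Pik3r1, which encodes a regulatory subunit of PI3-kinase, was at 91.0 CPM in Ctrl 1, 80.0 in Ctrl 2, 94.6 in WC1 1 and 20.1 in WC1 2, so that 1 WC1 library stood apart from the other 3 and the difference was not called (limma adjusted p = 0.37). When 1 library was left out, the log2 fold change of Pik3r1 ran from -2.03 to 0.15. The ratio of CPM to TPM, which follows the length assigned to a gene, was 0.963 for Ghr in Ctrl 1 and 0.648, 0.612 and 0.619 in the other libraries, each relative to the library's median gene. Only 0.0971% of 12355 genes had a larger ratio of highest to lowest value than the 1.57 of Ghr. For Igf1 the value was 1.04, which 3.39% of genes exceeded. In TPM, Ghr was at 263 and 190 in Ctrl and 400 and 557 in WC1, without the overlap seen in CPM, and limma on TPM called Ghr higher (log2 fold change 1.07, adjusted p = 0.044, against 0.57 and 0.31 in CPM).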
